A study of Oreochromis niloticus with 14 samples.

Results

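The comparison of untreated liver with untreated testis covered 7 of the 14 RNA-Seq libraries of the series, 4 of liver and 3 of testis, and the 12377 gene IDs that both deposited tables list, of 17455 in either. The fish were adult male Nile tilapia (Oreochromis niloticus) from stock 1 year old. Control fish received the carrier, DMSO with corn oil, in 5 intraperitoneal injections spaced 6 days apart, and were sampled on day 26, so the control tissues are those of injected and not of untouched fish. Fish given benzo(a)pyrene (BaP) at 3 mg/kg on the same schedule, 4 livers and 3 testes, served here as a second set of libraries. The RNA was selected for poly(A) tails. Titles of liver and testis libraries share the numbers 18 to 20, but the labels do not say that a number marks one fish, and p-values measure the spread between the libraries of each tissue.

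The liver makes most of the proteins of blood plasma, keeps blood glucose up between meals, synthesizes fat and bile acids and metabolizes foreign compounds. The testis of an adult fish holds germ cells in mitosis, in meiosis and in the remodelling that gives a spermatozoon its flagellum, enclosed in cysts of Sertoli cells. In tilapia, exocrine pancreatic tissue lies along the vessels of the liver, and both organs carry blood.

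The reads were spread very differently over the genes. In control liver, 50% of the reads on shared genes came from 88 to 147 genes, and the 10 genes with most reads took between 14.5 and 17.5%. In control testis, 50% of the reads needed 1039 to 1255 genes, and the top 10 took between 3.89 and 4.93%. The ranges of the tissues did not overlap on either measure. Over genes, log2 levels of any pair of livers were correlated at 0.898 to 0.937 and those of any pair of testes at 0.937 to 0.958, against 0.278 to 0.375 for a liver with a testis. Genes are not independent replicates, and these values describe the libraries only. The 525 IDs listed only for liver held 5.11 to 5.34% of the reads of control livers, and the 4553 listed only for testis held 12.3 to 13.9% of the reads of control testes. They were not compared here.

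**Figure D1:**
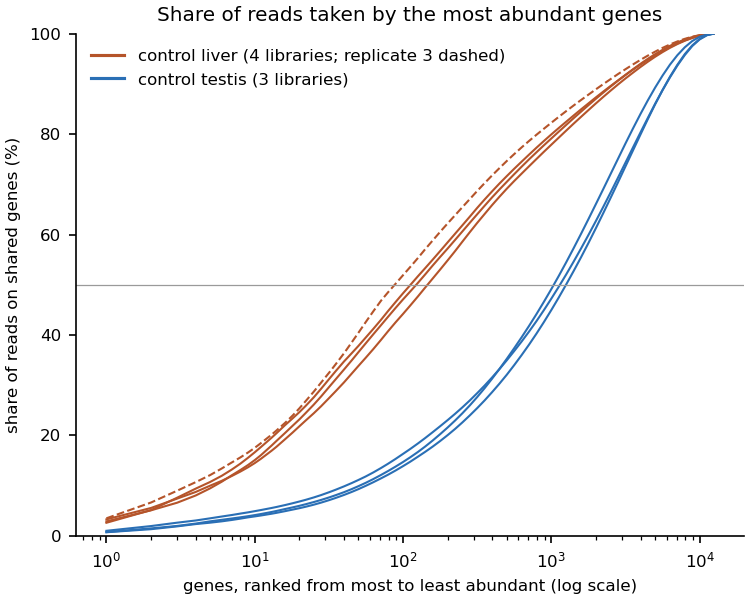
Share of the reads on the 12377 shared genes (%) against the number of genes, ranked from most to least abundant on a log scale, with 1 line for each control library. The 4 liver lines cross 50% at 88 to 147 genes and the 3 testis lines at 1039 to 1255.

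Levels are given in CPM, the reads of a gene relative to all reads on shared genes, scaled jointly over the 7 libraries by TMM (trimmed mean of M values), a scaling that takes most genes as equal. Differences are liver minus testis on the log2(CPM + 1) scale, with the standard error, from limma. For genes near 0 CPM the added 1 shrinks the difference below the log ratio of the levels. Values of a gene are listed in the order of replicates 1 to 4 of control liver and 1 to 3 of control testis. At these depths, 20130829 to 42836246 reads on genes per liver and 27334836 to 30347667 per testis, 3 reads stood for 0.114 to 0.278 CPM in liver and 0.0645 to 0.0730 in testis.

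Between the tissues, 3611 genes were higher in liver (29.2% of those tested) and 4003 higher in testis (32.3%) at an adjusted p under 0.05. Liver and testis values did not overlap for 7771 genes (62.8%), called or not, so a lack of overlap was common. A difference of at least 3 on the log2 scale, or 8-fold, was passed by 994 genes in liver (8.03%) and 757 in testis (6.12%). With TMM the extremes lay on the liver side, with 380 liver and 124 testis genes at a log2 difference of 5 or more, and 124 and 1 at 8 or more. The split between directions depended on the scaling: by library size alone, without TMM, the median of all genes moved from -0.06 to -1.39, with 1480 genes higher in liver and 7589 in testis. At 5 or more on the log2 scale, 226 liver and 405 testis genes then passed, so the excess of liver genes there was reversed. At 8 or more, 83 liver and 7 testis genes passed. Under all 5 scalings tried, 1473 genes were higher in liver and 3853 in testis. Smaller differences in favour of liver therefore hold relative to the bulk of genes only.

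**Figure D2:**
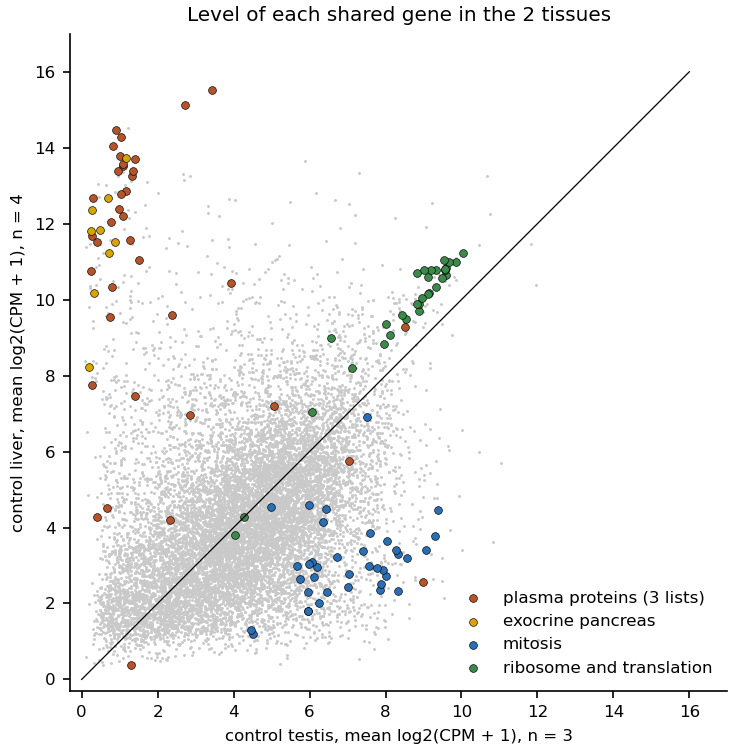
Mean log2(CPM + 1) of each of the 12377 genes in control liver (n = 4) against control testis (n = 3), with the diagonal of equal level. Most members of 3 lists of plasma proteins and all of the exocrine pancreas list lie along the upper left edge, most mitosis genes below the diagonal and most ribosome and translation genes just above it.

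The tables carry no gene names. Names of 1364 of the 12377 genes came from the supplementary list of the study, chosen by the study for changes with BaP, and are those of human or zebrafish homologs. Of these named genes, 46.0% were higher in liver and 20.0% higher in testis, with a median difference of 0.82. The counts of the lists below stand against these shares as well as against all genes, and describe the named members only.

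Genes of plasma proteins were higher in liver with few exceptions. All 15 members of the coagulation and protease inhibitor list were higher in liver, with a median difference of 11.4 and a range from 1.87 to 13.25. Together they took between 6.63 and 9.45% of the shared reads in liver and between 0.00793 and 0.0127% in testis. FGA, which encodes the alpha chain of fibrinogen, the protein of the clot, was at 33783, 31989, 55475 and 27894 CPM in the livers and at 5.21, 7.63 and 4.34 CPM in the testes. The difference was 12.41 ± 0.32, adjusted p = 2.7e-09. FGG, the gamma chain of the same protein, was at 19347, 18620, 30061 and 14963 CPM in liver and 1.63, 1.06 and 0.623 in testis (13.25 ± 0.32). The liver and testis values of both genes lay far apart, with no overlap. The serpin labelled SERPINA11 (12.48 ± 0.32) and FETUB, a fetuin of plasma (12.44 ± 0.28), differed by as much.

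Of 12 members of the complement and plasma defence list, 10 were higher in liver and 2 in testis, with a median of 8.50. The C3 genes encode the component on which the pathways of complement activation converge. One was at 10165, 10730, 12662 and 9768 CPM in liver and 1.14, 1.54 and 0.322 in testis (12.45 ± 0.29), and the other differed by 11.76 ± 0.30. CFB, the protease of the alternative pathway, was at 8083, 5352, 6356 and 6475 CPM in liver and 0.609, 0.108 and 0.0645 in testis, where the lowest value stands for 3 reads (12.36 ± 0.28). LECT2, a secreted factor of liver, differed by 11.38 ± 0.29. The gene labelled MBL2, the name of a lectin that liver secretes in mammals, went the other way, at 3.33, 9.70, 1.76 and 8.48 CPM in liver and 749, 301 and 589 in testis (-6.44 ± 0.51, adjusted p = 4.8e-06). No liver value overlapped those of testis. APCS, a pentraxin, was also lower in liver, by a small amount at levels near 1 CPM (-0.90 ± 0.29, adjusted p = 0.0203, and 0.0763 by edgeR's quasi-likelihood test), and the call was lost without testis replicate 2 or 3.

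Of 11 apolipoproteins and plasma carriers, 9 were higher in liver and 1 in testis, with a median of 11.28. Apolipoproteins are the protein part of the particles that carry lipid in blood. APOA1 was at 44231, 46298, 61876 and 39064 CPM in liver and 12.2, 4.07 and 18.03 in testis (12.09 ± 0.43), and apoa2 reached 13.56 ± 0.26, the largest difference among named genes. HPX, which binds free haem (13.22 ± 0.28), and APOB, the large structural apolipoprotein (12.77 ± 0.26), followed. TCN2, a carrier of vitamin B12, was higher in testis, at 166, 75.2 and 173 CPM against 73.6, 48.5, 37.3 and 57.6 in liver (-1.28 ± 0.37, adjusted p = 0.0126), a call lost without testis replicate 1 or 3. Of the 2 APOE genes, apoeb was not called: the livers were at 1133, 728, 346 and 527 CPM and the testes at 109.5, 368 and 1170, a difference of 0.78 ± 0.70, and the testis values spanned more than those of liver.

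**Figure D3:**
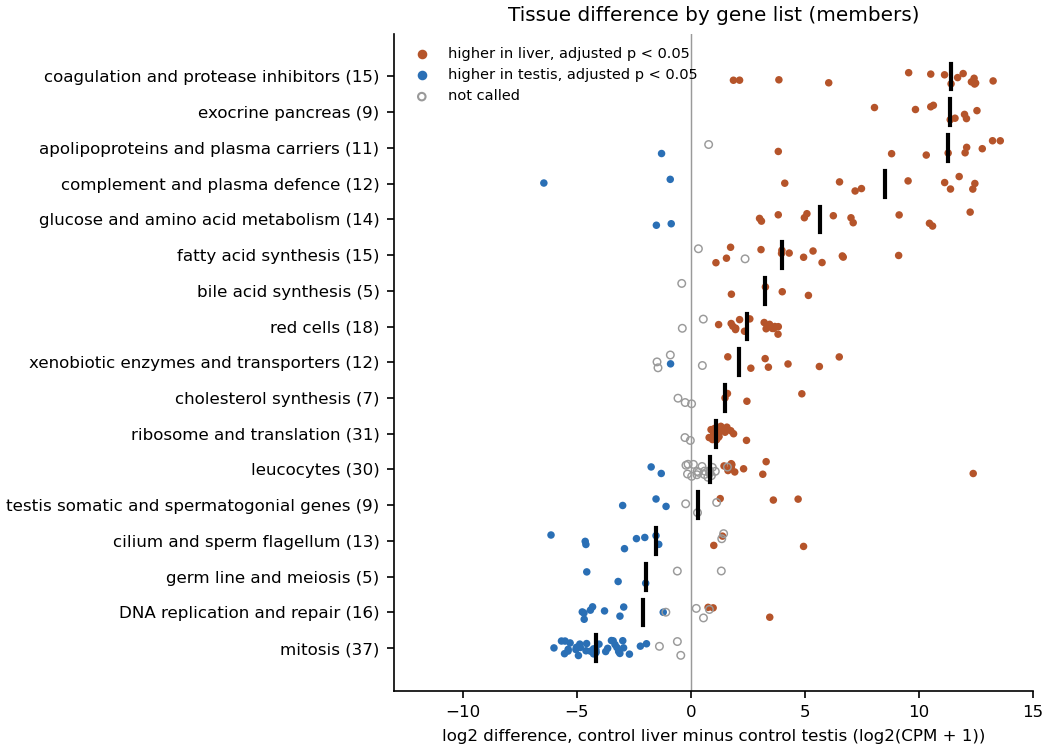
Log2 difference (control liver minus control testis) of each member of 17 gene lists, with the number of members in parentheses and a black bar at the median. Filled points passed an adjusted p under 0.05 and open points did not. Medians run from 11.4 for coagulation and protease inhibitors to -4.16 for mitosis.

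Enzymes of glucose and amino acid metabolism formed 2 groups by direction. Of 14 members, 12 were higher in liver, each by more than 3 on the log2 scale, and 2 in testis, with a median of 5.67. G6PC, which releases glucose from glucose-6-phosphate as the last step of glucose production, was at 4524, 6218, 9945 and 7013 CPM in liver and 0.511, 0.584 and 0.0860 in testis (12.24 ± 0.32). The gene pck2, a mitochondrial enzyme of gluconeogenesis, stood at 8053, 8513, 11106 and 8747 CPM against 6.09, 5.00 and 5.24 (10.46 ± 0.25). AGXT and GRHPR, both of which remove glyoxylate, differed by 10.59 ± 0.25 and 9.13 ± 0.30. ASS1, of arginine synthesis, was higher in testis by 0.86 ± 0.32, with overlapping values (adjusted p = 0.0384, and 0.0729 by the quasi-likelihood test). That call was lost in 5 of the 7 fits that left out 1 library.

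Of the 5 bile acid genes, 4 were higher in liver and none in testis, with a median of 3.27. CYP7B1, an oxysterol hydroxylase, was at 288, 292, 158 and 356 CPM in liver and 4.31, 7.89 and 7.56 in testis (5.15 ± 0.35). HSD3B7, which acts on the sterol ring in the same route, differed by 4.01 ± 0.38. SLC27A5, which couples bile acids to CoA, was at 63.8, 30.01, 219 and 35.6 CPM in liver, highest in replicate 3, and 4.60, 5.56 and 6.73 in testis (3.27 ± 0.60). AMACR, a racemase of side chains, differed by 1.78 ± 0.32. AKR1D1, a reductase of the sterol ring, was not called (-0.40 ± 0.46, adjusted p = 0.471). By library size alone, 3 members were higher in liver and 1 in testis, with a median of 1.90. AMACR was then not called (0.38), and AKR1D1 was higher in testis (-1.85, adjusted p = 0.00603 in limma).

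Most genes of fatty acid synthesis were higher in liver, and several varied widely among livers. Of 15 members, 13 were higher in liver and none in testis, with a median of 3.99. THRSP, a regulator of fat synthesis, was at 3356, 3591, 229 and 4425 CPM in liver and 3.43, 2.10 and 1.85 in testis (9.11 ± 0.90). The desaturase scd was at 14899, 11860, 776 and 19164 CPM against 139.8, 48.4 and 52.3 (6.64 ± 0.99), and FASN, the fatty acid synthase, at 2087, 3289, 283 and 3673 CPM against 45.8, 32.2 and 39.99 (5.36 ± 0.77). In each of these genes liver replicate 3 was far below the other livers and still above every testis. ME1, the malic enzyme that supplies NADPH, was at 896, 862, 5.46 and 1057 CPM in liver and 91.5, 40.1 and 35.7 in testis, and replicate 3 lay below the testes. Its difference of 2.38 ± 1.56 was not called in limma (adjusted p = 0.21) but was by the quasi-likelihood test (adjusted p = 0.0258). In limma the difference became 4.24 with an adjusted p of 2.4e-05 without that library. Without it, 14 of the 15 members were higher in liver, with a median of 4.84. The paralog scdb did not share the pattern, at 304, 109.9, 317 and 50.3 CPM in liver and 0.487, 0.281 and 0.752 in testis (6.68 ± 0.59), nor did the elongase ELOVL6 (5.75 ± 0.31).

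Cholesterol genes differed less. Of 7 members, 4 were higher in liver and none in testis, with a median of 1.50. SQLE, the squalene epoxidase, differed by 2.46 ± 0.51. DHCR7 and FDFT1, of the last and the committed step of sterol synthesis, differed by 1.61 ± 0.48 and 1.50 ± 0.32, and the call of DHCR7 was lost without testis replicate 2 (1.44). HMGCS1, at the start of the pathway, was at 37.98, 22.2, 44.9 and 16.4 CPM in liver and 36.7, 29.3 and 35.1 in testis and was not called (-0.25 ± 0.36). By library size alone, 1 member was higher in liver and 3 in testis, and the median was 0.098.

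Among 12 xenobiotic enzymes and transporters, 7 were higher in liver, 1 in testis and 4 were not called, with a median of 2.13. By library size alone, 5 were higher in liver and 4 in testis, with a median of 0.87. The gene named cyp1a in zebrafish, the main CYP1 of fish liver and a target of the aryl hydrocarbon receptor, was at 612, 297, 85.4 and 439 CPM in liver and 0.706, 2.01 and 5.24 in testis (6.51 ± 0.66). CYP1B1, of the same family, was at 0, 0.0545, 0.925 and 0.418 CPM in liver and 1.02, 1.90 and 1.38 in testis (-0.89 ± 0.31, adjusted p = 0.03, and 0.108 by the quasi-likelihood test). The values of the tissues did not overlap for either gene, but the call of CYP1B1 was lost in 4 of the 7 fits that left out 1 library. CYP2W1 and CYP2J2, other cytochromes P450, differed by 5.63 ± 0.36 and 4.26 ± 0.29. SLC22A7, an organic anion transporter, was at 32.2, 26.1, 202 and 14.8 CPM in liver and 0.0974, 0.0432 and 50.8 in testis. Testis replicate 3 lay above 3 of the 4 livers, and the call (3.40 ± 1.33, adjusted p = 0.0474) was not kept by the quasi-likelihood test (adjusted p = 0.344) or in 5 of the 7 fits that left out 1 library.

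On the testis side, the mitosis list stood out by number. Of 37 members, 34 were higher in testis and none in liver, with a median of -4.16 (or 4.16 higher in testis). The members took between 0.987 and 1.51% of the shared reads in testis and between 0.0115 and 0.0680% in liver. In bulk tissue, fewer cells of a type and less RNA per cell cannot be told apart. NDC80, of the kinetochore complex that binds microtubules, was at 505, 312 and 209.7 CPM in testis and 2.27, 6.59, 0.370 and 18.1 in liver (-5.99 ± 0.76). TOP2A, the topoisomerase that untangles chromosomes, was at 776, 684 and 483 CPM against 7.87, 20.3, 2.13 and 59.5 (-5.53 ± 0.81). CENPF, a kinetochore protein (-5.67 ± 0.81), and KIFC1, a motor of the spindle (-5.51 ± 0.66), differed by as much. In all 4 genes replicate 4 was the highest and replicate 3 the lowest of the livers, and no liver reached the lowest testis. Without replicate 3, 35 members were higher in testis, with a median of -3.73. STIL and CDK5RAP2, of the centriole and centrosome, were not called (-0.44 ± 0.29 and -0.59 ± 0.38).

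Replication and repair genes were mixed. Of 16 members, 9 were higher in testis and 3 in liver, with a median of -2.07. LIG1, the ligase that joins Okazaki fragments, was at 119.7, 123 and 85.9 CPM in testis and 3.10, 3.05, 3.15 and 3.76 in liver (-4.68 ± 0.25), with livers closer together than for the mitosis genes. FANCI, of the Fanconi repair pathway (-4.75 ± 0.48), the chromatin protein ATAD2 (-4.67 ± 0.74) and PRIMPOL, a primase-polymerase that restarts stalled forks (-4.40 ± 0.54), were also higher in testis. MCM7, of the replicative helicase, was not called, at 266, 192, 76.98 and 308 CPM in liver and 190.3, 158 and 131 in testis (0.24 ± 0.45). REV3L, the catalytic subunit of a translesion polymerase, was higher in liver, at 199, 274, 312 and 201 CPM against 13.4, 27.6 and 25.1 (3.46 ± 0.33). The translesion polymerase POLK (0.98 ± 0.31) and the end-joining polymerase POLM (0.76 ± 0.29) were higher in liver, but by library size alone neither was called. The call of POLM was also lost by the quasi-likelihood test (adjusted p = 0.0781) and in 5 of the 7 fits that left out 1 library, and that of POLK without testis replicate 2 or 3.

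Of 28 germ line symbols only 5 had a name here, so most germ-cell markers, among them ddx4, dazl and sycp3, were not analysed, and the label of the testis rests on few of its own genes. CCNB3, a cyclin of meiosis in vertebrates, was at 129.9, 91.3 and 81.7 CPM in testis and 1.66, 3.43, 0.370 and 19.1 in liver (-4.56 ± 0.75). TDRD15, of the Tudor family that acts with piRNAs, was at 56.7, 108 and 95.5 CPM against 20.5, 5.34, 17.1 and 2.05 (-3.18 ± 0.63), and MOV10L1, a helicase of piRNA processing in mouse, at 78.4, 84.4 and 61.7 against 22.8, 13.8, 8.51 and 38.7 (-1.98 ± 0.45). Each was above every liver in all 3 testes, while the livers were not at 0. WEE2, an oocyte kinase in mammals, was at 14.98, 23.2, 2.50 and 28.4 CPM in liver and 4.33, 5.60 and 3.95 in testis. In limma it was not called (1.34 ± 0.64, adjusted p = 0.0934, and 0.00053 without liver replicate 3). The quasi-likelihood test called it higher in liver (adjusted p = 0.0309).

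The cilium and sperm flagellum list had 13 members, 8 higher in testis and 3 in liver, with a median of -1.52. ARL6, a small GTPase of the Bardet-Biedl set that acts in cilia, was at 469, 254 and 219 CPM in testis and 7.94, 2.61, 0.925 and 4.33 in liver (-6.12 ± 0.50). IFT172, of the intraflagellar transport complex, was at 589.7, 494 and 342 CPM against 13.2, 10.3, 46.7 and 15.4 (-4.63 ± 0.47), and TTLL5, which adds glutamates to tubulin, at 156, 139.6 and 126 against 11.2, 4.58, 3.24 and 3.04 (-4.60 ± 0.39). The gene labelled TXNDC8, the name of a thioredoxin of mammalian sperm, was higher in liver, at 134, 190.1, 75.8 and 120.1 CPM against 6.09, 3.18 and 1.25 (4.94 ± 0.43). CEP162 (1.39 ± 0.38) and MAPK15 (1.01 ± 0.33), both of ciliary assembly, were higher in liver but not called by library size alone, and the call of MAPK15 was lost in 4 of the 7 fits that left out 1 library.

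Of 9 genes of testis somatic cells and spermatogonia, 3 were higher in testis and 3 in liver, with a median of 0.30 (-1.10 by library size alone). SOX9, a factor of Sertoli cells, was at 8.62, 4.80 and 13.7 CPM in testis and 4.61, 2.51, 5.09 and 2.17 in liver, with overlap (-1.08 ± 0.38, adjusted p = 0.0321, lost in 4 of the 7 fits that left out 1 library). RDH10, which makes retinal, was also higher in testis (-1.52 ± 0.44), though not called without testis replicate 3 (-1.18). FST, the activin-binding follistatin, was higher in liver, at 28.5, 40.6, 103 and 4.52 CPM against 0.0487, 0.238 and 0.0645 (4.70 ± 0.79), as was STRA6, a receptor for retinol binding protein (3.62 ± 0.70). The 2 genes labelled KIT, a receptor of germ cells and pigment cells, went opposite ways. The ID named kitb was at 55.7, 32.9 and 16.3 CPM in testis and 3.86, 2.40, 3.61 and 2.59 in liver (-2.98 ± 0.39), and kita at 1.02, 1.12 and 2.49 against 5.30, 6.05, 7.12 and 2.66 (1.29 ± 0.35). For kita the call was lost by library size alone.

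**Figure D4:**
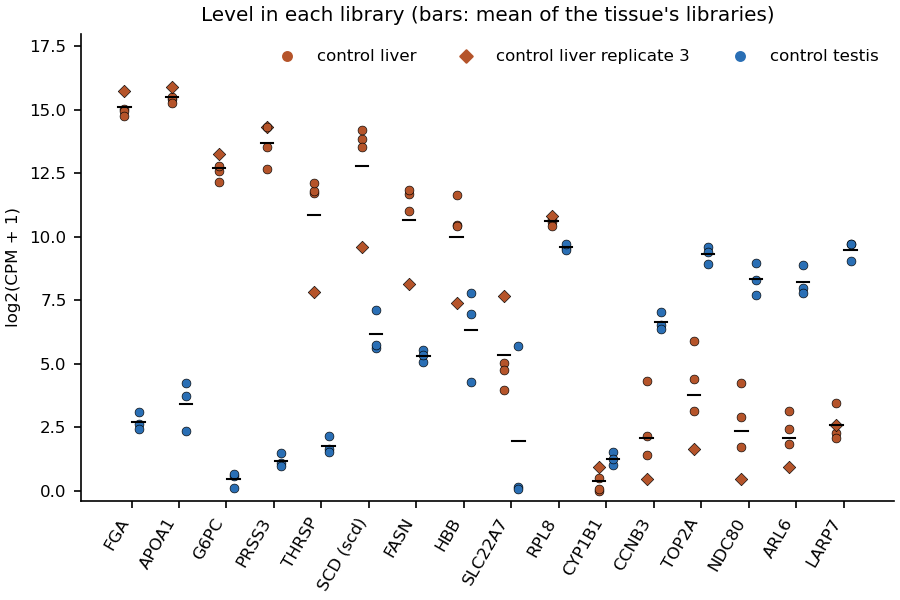
Level of 16 genes in each control library, as log2(CPM + 1), with liver and testis side by side, liver replicate 3 as a diamond and a bar at the mean of each tissue. For THRSP, scd and FASN liver replicate 3 lies below the other livers and above the testes, and for SLC22A7 1 testis lies among the livers.

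Among markers of other cell types, most genes of exocrine pancreas and red cells were higher in liver with TMM. All 9 exocrine pancreas genes were higher in liver, with a median of 11.37, and took between 1.38 and 3.65% of the reads of a liver and between 0.000559 and 0.00133% of those of a testis. The trypsin PRSS3 was at 12035, 6451, 20762 and 20354 CPM in liver and 1.12, 1.77 and 0.967 in testis (12.54 ± 0.42), and the elastase CELA1 at 4404, 3050, 6775 and 8152 against 0.146, 0.411 and 0.0860 (12.08 ± 0.36). The genes labelled CTRC, named ela2 and ela2l in zebrafish, differed by 11.99 ± 0.41 and 11.58 ± 0.39. Liver replicate 2 was the lowest for all 4 genes. Of 18 red cell genes, 16 were higher in liver and none in testis, with a median of 2.47. By library size alone, 8 were higher in liver and 1 in testis, with a median of 1.44. A beta globin labelled HBB was at 1425, 3172, 168 and 1373 CPM in liver and 18.4, 220.5 and 125 in testis, with replicate 3 among the testes (3.64 ± 1.02, and 2.60 and not called without testis replicate 1). By library size alone HBB was at 2.16 and not called. Without liver replicate 3, 16 red cell genes were again higher in liver, with a median of 3.01. Differences of similar size were those of SLC4A1, the band 3 anion exchanger (3.83 ± 0.85), TFR2, a transferrin receptor that liver also uses (3.82 ± 0.42), and EPOR, the erythropoietin receptor (3.68 ± 0.31). Red cell genes held 0.0311 to 0.468% of shared reads in the livers against 0.0158 to 0.0961% in the testes, and these ranges overlapped. The part of blood and pancreas in other tissue differences was not tested.

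Of 30 leucocyte genes, 10 were higher in liver, 2 in testis and 18 were not called, with a median of 0.83 (-0.20 by library size alone). IKZF3, a lymphoid factor, was at 94.6, 173, 58.1 and 36.6 CPM in liver and 6.50, 7.48 and 6.77 in testis (3.30 ± 0.46). NCF1, of the phagocyte oxidase, differed by 3.16 ± 0.62, and the T cell receptor chain TRBC1 by 2.31 ± 0.30. Both immunoglobulin genes labelled IGHG1 were higher in testis, by 1.74 ± 0.48 and 1.29 ± 0.42, and highest in testis replicate 3, without which the second was not called (-0.76). One gene stood apart from the list: the ID labelled PRF1, the name of a pore protein of cytotoxic cells, was at 12251, 5244, 12758 and 5938 CPM in liver and 0.341, 1.06 and 0.408 in testis (12.38 ± 0.39). The next largest difference in the list was that of IKZF3.

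Of 31 ribosome and translation genes, 29 were higher in liver and none in testis, with a median of 1.10, and none by 3 or more. Under scaling by library size alone the median was -0.38, with 1 member higher in liver and 3 in testis, so the direction of the list depended on the scaling. The list took 2.10 to 2.64% of the shared reads in liver and 2.38 to 3.37% in testis, with overlap. RPS12 had the largest difference, at 439.9, 557, 551 and 500.3 CPM in liver and 103, 82.5 and 95.1 in testis (2.44 ± 0.25), and remained higher in liver by library size alone (0.96, adjusted p = 0.00498). The elongation factor eef1a1l1 (1.88 ± 0.30), RPLP0 (1.75 ± 0.24) and RPS3 (1.58 ± 0.24) did not pass by library size alone. RPL8, which has qPCR primers in the study, was at 1541, 1648, 1833 and 1388 CPM in liver and 764, 722 and 837 in testis (1.04 ± 0.24), and at -0.44 by library size alone.

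Of the genes with qPCR primers, FASN and RPL8 were higher and CYP1B1 lower in liver, as given above, and the remaining 4 were higher in liver. DDIT4, a stress-induced inhibitor of mTOR signalling, was at 509, 1635, 1180 and 1306 CPM in liver and 4.80, 7.72 and 11.8 in testis (6.94 ± 0.44). GADD45B, induced by stress and DNA damage, was at 319, 503, 628 and 776 CPM against 21.03, 21.1 and 17.2 (4.68 ± 0.33), and TET3, which oxidizes methylated cytosine, at 108, 102, 71.1 and 93.9 against 1.78, 6.53 and 3.93 (4.32 ± 0.36). For these 3 genes the tissues did not overlap, as for 62.8% of all genes tested. IGF2, a growth factor, did overlap, at 14.2, 22.8, 8.05 and 28.9 CPM in liver and 3.09, 8.43 and 9.76 in testis (1.25 ± 0.47, adjusted p = 0.0432), and by library size alone its difference was -0.10. The call of IGF2 was lost in 5 of the 7 fits that left out 1 library.

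Outside the lists, the named genes highest in liver were those labelled DIABLO (12.59 ± 0.37), POMZP3 (11.40 ± 0.34), INHBC (10.66 ± 0.30), ENDOU (10.44 ± 0.40), CPA3 (10.22 ± 0.44), ASTL (10.15 ± 0.25), KLK2 (10.10 ± 0.45) and PPP1R3G (9.06 ± 0.27). DIABLO is a mitochondrial activator of apoptosis in mammals. The ID of that name was at 8513, 4837, 15348 and 7769 CPM in liver and 0.341, 0.454 and 0.279 in testis. INHBC, a subunit of activins known from liver, was at 1804, 2971, 2000 and 3012 CPM against 0.170, 0.778 and 0.537, and PPP1R3G, which directs a phosphatase to glycogen, at 928, 984, 799 and 1380 against 1.02, 0.714 and 0.903. CPA3, the name of a carboxypeptidase, was lowest in liver replicate 2, like the pancreas genes, at 2981, 1286, 5119 and 3480 CPM.

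The named genes outside the lists that were highest in testis were LARP7 (-6.90 ± 0.37), CEP135 (-6.39 ± 0.28), MDH1B (-5.19 ± 0.35), CHL1 (-5.11 ± 0.29), FOLH1 (-5.08 ± 0.46), si:ch211-69g19.2 (-4.93 ± 0.81), CLU (-4.92 ± 0.62) and WDCP (-4.84 ± 0.39). LARP7 binds the 7SK RNA that restrains transcription elongation. It was at 854, 524 and 833 CPM in testis and 3.78, 10.02, 5.00 and 3.19 in liver. CEP135, a structural protein of the centriole, was at 349, 238 and 179.5 CPM against 1.97, 1.96, 2.04 and 1.86, with livers close together. CLU, the secreted chaperone clusterin, which Sertoli cells make in mammals, was at 479, 177 and 342 CPM against 8.62, 11.2, 2.41 and 25.9. No library of one tissue overlapped the other in these 16 genes, a condition of their choice.

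The largest differences among IDs without a name were similar in liver and larger in testis. ENSONIG00000014105 differed by 13.31 ± 0.34 and ENSONIG00000002383 by 12.28 ± 0.42 in favour of liver. ENSONIG00000013697 was at 4704, 2911 and 5297 CPM in testis and 0.832, 0.272, 3.79 and 0.646 in liver (-10.98 ± 0.45), and was the 1 gene higher in testis by 8 or more. ENSONIG00000012944 followed at -7.38 ± 0.48.

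Of the named genes, 54 names were shared by 2 or more IDs, 110 IDs in all. In 38 of these names every ID called was higher in liver, in 5 every ID called was higher in testis, in 8 no ID was called, and in 3 the IDs were called in both directions. Beside KIT, singled out above, these were ELL3, of transcription elongation, and SEC61A1, a channel subunit of the endoplasmic reticulum. All 3 were chosen after their values were seen. ELL3 had an ID at 43.6, 78.2 and 71.7 CPM in testis and 7.34, 12.4, 3.33 and 8.48 in liver (-2.95 ± 0.40) and another at 59.4, 44.6 and 38.4 against 611, 996, 954 and 1210 (4.26 ± 0.31). SEC61A1 had an ID at 308, 201 and 166 CPM in testis and 34.3, 24.6, 48.8 and 33 in liver (-2.63 ± 0.32) and another at 119.8, 106 and 127 against 591, 437, 869 and 496 (2.29 ± 0.30). Reads of near-identical copies may have been split by the counting, which would make the levels of such IDs uncertain. Such a split was not tested.

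BaP fish, whose libraries are other libraries than those above, gave 3945 genes higher in liver (31.9%) and 4301 higher in testis (34.7%). Of the 7614 genes called in control fish, 6812 were called in the same direction in BaP fish, or 89.5%, which is 82.6% of the 8246 calls in BaP fish, and 1 was called in the opposite direction. Of the 1751 called with a difference of 3 or more, 1737 were called in the same direction. For FGA the difference in BaP fish was 11.63 ± 0.77, for NDC80 -7.22 ± 0.19 and for ARL6 -6.88 ± 0.25. FGA was at 9.02, 76.5 and 4.21 CPM in BaP testis replicates 1 to 3. Replicate 2 was also the highest BaP testis for the other genes named above with the 4 largest differences in each list of plasma proteins. Among them were FGG (3.37, 42.5 and 1.26), LECT2 (3.24, 41.6 and 4.94) and APOA1 (15.1, 130 and 8.57). The BaP tissue differences of these genes include that library. AGXT was highest in replicate 1 (1.85, 1.64 and 0.109). MBL2, a gene higher in testis, was lowest in replicate 2 (137, 99.7 and 305). Other genes, chosen after their values were seen, were less alike between control and BaP fish. ME1, not called by limma in control fish, was higher in testis in BaP fish (-2.26 ± 0.36, adjusted p = 0.00048 in limma). So were MCM7 (-1.80 ± 0.41) and WEE2 (-1.70 ± 0.34). FASN was higher in liver in both, by 5.36 ± 0.77 in control fish and 1.50 ± 0.49 in BaP fish. A change of the tissue difference with BaP was called for 0 genes (0%) at an adjusted p under 0.05 in limma and 0 by edgeR's quasi-likelihood test. In limma, 854 genes had an unadjusted p under 0.05, and the lowest adjusted p was 0.469. With so few libraries, this does not show that the differences were equal in control and BaP fish. The 1 gene called in opposite directions was LIPE, the hormone-sensitive lipase, named after its values were seen. Control livers were at 128, 107, 55.6 and 62.96 CPM and control testes at 41.4, 29.2 and 28.9 (1.32 ± 0.35), and the difference in BaP fish was -0.62 ± 0.20. By library size alone its difference in control fish was -0.13.

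**Figure D5:**
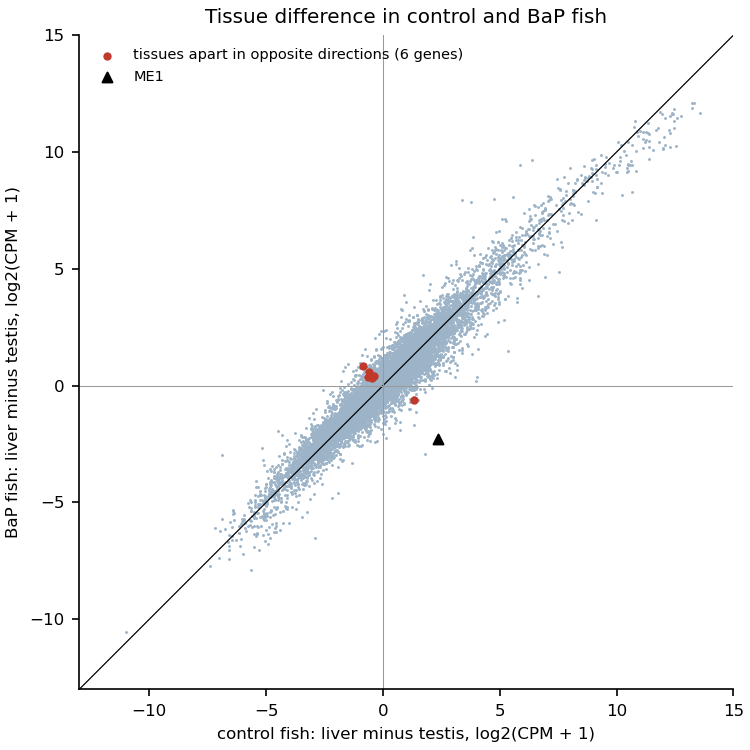
Log2 difference of each shared gene, liver minus testis, in BaP fish against control fish, with the line of equal difference. The 6 red points are genes whose tissues do not overlap and lie in opposite directions in the 2 treatments, and the triangle is ME1.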

How the data were processed

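RNA-Seq of 7 control libraries, 4 of liver and 3 of testis, was compared, with 7 libraries of BaP fish as a second set. The study's text and the labels state that the authors trimmed reads, aligned them with TopHat and used edgeR, without versions. The counting program, genome build and annotation are not given in the sources used here. The deposited values are normalized signal values, reads per gene divided by an effective library size and scaled as CPM by the authors, separately for liver and testis. Dividing each library by its smallest step gave whole reads for 100% of the values (tolerance 0.1). Each tissue's table had been filtered on low values before deposit by a rule that is not given.

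The 12377 gene IDs in both tables were kept and the 7 libraries were scaled together by TMM (edgeR 4.0.16, R 4.3.3). The TMM factors were 0.567 to 0.712 in liver and 1.57 to 1.93 in testis. CPM were tested as log2(CPM + 1) with limma 3.58.1, with default moderation and Benjamini-Hochberg adjustment over all 12377 genes. BaP fish were fitted in the same way, and the difference of the tissue differences as the interaction in all 14 libraries. Count tests on the recovered reads (edgeR's quasi-likelihood and exact tests, DESeq2 1.42.0) were alternatives, as were other scalings, pseudocounts, filters, blocks and leaving out each library. The main test was limma because the deposited unit is not counts. The tests were tried on simulated data in which few genes changed, equally often in each direction. That trial does not bear on the choice of scaling. Floors of 3 reads cover counting error only.

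Libraries were grouped by tissue and treatment in their titles. Names came from the study's supplementary list, which holds 1526 IDs, 1436 of them with a name. The 17 gene lists, the members and the tests were chosen with earlier results of these data known. In each list the text names up to 4 called members with the largest difference, up to 3 called against the direction of most, and up to 2 not called with the smallest difference. It also names the 8 genes outside the lists with the largest difference in each direction without overlap, 2 IDs without a name in each direction and the 7 genes with qPCR primers. Of these, 2 list members are not reported here. Sequences, and coordinates of genes, were not used here, since the IDs could not be matched to the reference table.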

Additional observations from a re-analysis of the deposited data

Results flagged for a closer look

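Within the group of 4 control livers, Dixon's test at the 95% level set 1 library apart in 5 of the 124 genes named here, where chance alone sets 1 apart in about 1 of 20. In 4 of the 5 it was liver replicate 3. THRSP was at 229 CPM there, scd at 776 CPM, ME1 at 5.46 CPM and SLC4A1 at 11.7 CPM, each the lowest liver. LIG1 was at 3.76 CPM in liver replicate 4, the highest of 4 close values. The testes, 3 in number, were not tested in this way.

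With TMM fitted to each treatment, no liver overlapped a testis in either treatment for 6 genes, and the direction differed between control and BaP fish. The difference of the 2 tissue differences, BaP minus control on the log2 scale, was -1.97 for LIPE, 1.64 for CLIP2, a linker of microtubules, and 0.73, 0.76 and 0.95 for EIF3G, EIF3H and EIF6, of translation initiation and ribosome assembly. It was 1.13 for 1 gene without a name. By library size alone the control differences were -0.13 for LIPE, -2.22 for CLIP2 and -1.77 for the gene without a name. For EIF3G, EIF3H and EIF6 they were -1.91, -1.85 and -2.07. Whether the directions still differ under that scaling was not examined. In the interaction fit of limma the unadjusted p of the 6 genes ranged from 0.00023 to 0.016 and no adjusted p was below 0.514. In control fish only LIPE and CLIP2 were called, and the call of CLIP2 was lost without liver replicate 3 (-0.64) and without testis replicate 1 or 2 (-0.82 each). These 6 genes were chosen after their values were seen.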

How the results depend on the processing

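Scaling changed the results most. By library size alone, 1480 genes were higher in liver and 7589 in testis, and with the values as deposited 1503 and 7708. At a log2 difference of 3 or more the counts were 524 and 2261, and 513 and 2233. In BaP fish, library size alone gave 1414 and 8596. The share of calls that were higher in liver was 16.3% under both, against 47.4% with TMM. All 17 list medians kept their sign except that of testis somatic and spermatogonial genes (-1.10 by library size alone and -1.10 as deposited), leucocytes (-0.20 and -0.19) and ribosome and translation (-0.38 and -0.40). Of the 124 genes named, 9 changed sign under both: APOE (-0.70 and -0.71), CEP162 (-0.069 and -0.083), MAPK15 (-0.45 and -0.47), POLK (-0.42 and -0.43), POLM (-0.58 and -0.59), MCM7 (-1.24 and -1.25), RPL8 (-0.44 and -0.46), IGF2 (-0.10 and -0.11) and LIPE (-0.13 and -0.15).

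The 4 counts stayed within 1.5 times their values under each of the other 11 settings that dropped no library. These were tests by edgeR and DESeq2, DESeq2's size factors, totals of each whole table, a pseudocount of 0.1, another prior variance, a filter at 1 CPM, thinning to one depth and the blocks below. In the blocks, liver replicate 4 does not enter the tissue difference. Leaving out each library gave 3119 to 3772 genes higher in liver and 3461 to 3910 in testis, and 914 to 1043 and 670 to 826 at 3 or more. Without 1 library the call of 15 named genes was lost, with values of 2.60 for HBB (testis replicate 1), 1.44 for DHCR7 (testis replicate 2), -0.76 for 1 IGHG1 gene and -1.18 for RDH10 (testis replicate 3). For the other 11 genes 2 or more libraries each did so. In limma under the main scaling, APOE (1.63 without testis replicate 3), ME1 and WEE2 were called only with a library left out. With every library kept, edgeR's quasi-likelihood test called ME1 (adjusted p = 0.0258) and WEE2 (adjusted p = 0.0309). Without testis replicate 1, APOE was at -0.075, and MCM7, not called, ranged up to 0.73 without liver replicate 3.

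The title numbers 18 to 20 and the replicate numbers 1 to 3 are shared between the tissues. Deviations from the tissue mean were correlated at r = 0.02, -0.01 and 0.13 for libraries of one title number. For those of one replicate number r was 0.01, -0.01 and -0.18. Over all pairs of a control liver with a control testis r ran from -0.18 to 0.16. So few pairs cannot settle whether a number marks one fish. With a replicate block on the replicate number, 3177 genes were higher in liver and 3520 in testis, and with a replicate block on the title number 3358 and 3721. Liver replicate 4 shares neither number with a testis. It was alone in its block and did not enter the tissue difference of either fit. The block on the replicate number ended the call of 7 named genes, ASS1, CYP1B1, MAPK15, POLK, POLM, SOX9 and IGF2, and that on the title number of 4 of them, ASS1, CYP1B1, POLK and POLM. The calls of ASS1, MAPK15, POLM, SOX9 and IGF2 were also lost by leaving out liver replicate 4, and those of CYP1B1 and POLK were not. Among the named genes, 2 that were not called changed sign under either block, HMGCS1 (0.0028) and MCM7 (-0.00042), and also without liver replicate 4 (0.0027 and -0.00051). The block fits therefore cannot separate an effect of pairing from the loss of that library.

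Levels of many liver genes in testis were near or below 1 CPM, so that their differences depend on the added 1. Some stood for a few reads only, such as that of CFB in testis replicate 3. Groups of 4 and 3 libraries left 4763 genes not called, which does not show that they are equal. Names cover 1364 of 12377 genes and were chosen by the study for changes with BaP.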
